A study of Mus musculus with 6 samples.

Results

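Single cells from the mouse dura were examined for 10 genes known from bone, cartilage, tendon and their linings: Alpl, Mgp, Runx2, Ostn, Clec11a, Smoc2, Comp, Matn4, Postn and H19. The genes were found by their symbols among the 31053 genes of the count matrices, and all 10 were present. The series held 6 droplet libraries of C57BL6 mice with no treatment named: 4 replicates of cells taken from the surface of the cortex (cortical surface, labelled as brain tissue) and 2 replicates of cells taken from the connective tissue on the inside of the skull (bone-associated, labelled as dura and skull). Each library was a pool of several adult mice, and the labels name no transgene or mutant allele in either group, so individual animals cannot be separated and the library was the replicate. Both groups were dissociated and sorted for viable cells. The GEO protocol text gives 1 dissociation for all 6 libraries while the methods of the study describe a different enzyme mix, and the dissection is what sets the groups apart, so tissue and handling cannot be told apart.

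Bone forms in the skull when mesenchymal cells commit to the osteoblast lineage under Runx2, lay down collagen, and let it mineralize. Alkaline phosphatase (Alpl) removes pyrophosphate, an inhibitor of mineral, whereas matrix Gla protein (Mgp) holds mineral back in cartilage and vessel walls. Ostn (musclin, or osteocrin) and Clec11a (osteolectin) are secreted factors, the former binding the natriuretic peptide clearance receptor and the latter acting on osteogenic progenitors. Postn, Smoc2, Comp and Matn4 encode proteins of the extracellular matrix, and H19 is an imprinted noncoding RNA that is abundant in fetal tissues. The dura lies against the inner face of the skull, and its outer layer also serves as the periosteum there.

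The cells called dural here were the mesenchymal-like cells of the bone-associated libraries, and the leptomeningeal cells were the mesenchymal-like cells of the cortical surface libraries. These names follow the library, and no leptomeningeal marker was used to tell the cells apart. Cells were clustered without the 10 genes and without the other bone and cartilage genes described later, so that class membership did not use them. Of 8680 cells that passed the filters, 295 were dural (37 and 258 in bone-associated replicates 1 and 2) and 281 were leptomeningeal (78, 146, 30 and 27 in cortical surface replicates 1 to 4). All 8 mesenchymal markers were detected in the dural cells, with a summed level of 19348 to 24229 CPM (the unique molecular identifiers, or UMIs, of a gene per 1000000 UMIs of those cells in a library). In the same cells Pdgfra stood at 217 and 146 CPM and the leukocyte gene Ptprc at 3.27 and 2.10 CPM. Leptomeningeal cells had Pdgfra at 276 to 488 CPM and a mesenchymal marker sum of 6412 to 10170 CPM.

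The libraries held 8408685 to 56169736 UMIs in all barcodes. Hemoglobin took 84.6% and 71.9% of these in cortical surface replicates 3 and 4 and at most 0.52% in the others. It also made up 5.71% and 18.1% of the UMIs of the leptomeningeal cells of those replicates. Summed border macrophage markers ranged from 38.5 to 1826 CPM over the 4 leptomeningeal groups and from 5.78 to 9.81 CPM over the 2 dural groups. VSMC markers summed to 798 to 1395 CPM in dural and 51.4 to 319 CPM in leptomeningeal cells, which did not overlap, and pericyte markers to 156 to 1002 CPM and 89.9 to 233 CPM, which did. All 9 VSMC and all 7 pericyte markers had UMIs in both. With the hemoglobin genes left out, those of the 10 genes that were called in the main comparison, given later, were still called. Any other part of the hemoglobin in the results was not tested, nor was that of the macrophage and VSMC markers. Pericyte markers were highest in a cluster of 13 dural cells, described later as D3, and the calls on the 10 genes are also given without it. Dural cells were also deeper, with medians of 16557 and 14163 UMIs against 4511 to 9296 in leptomeningeal cells. The 6 libraries shared 11 cell barcodes over 15 pairs of libraries, with at most 2 in a pair, and none joined mesenchymal-like cells of different libraries.

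In the GRCm38 annotation the genes are spread over 8 chromosomes. Alpl lies at chr4:137741733-137796384 on the minus strand, Mgp at chr6:136872435-136875823 (minus), Runx2 at chr17:44495987-44814797 (minus), Ostn at chr16:27307489-27351212 (plus) and Clec11a at chr7:44302687-44306902 (minus). Smoc2 lies at chr17:14279506-14404790 (plus), Comp at chr8:70373558-70382066 (plus), Matn4 at chr2:164389393-164405160 (minus), Postn at chr3:54361109-54391037 (plus) and H19, the only long noncoding RNA among them, at chr7:142575529-142578143 (minus). Exons of Matn4 overlap Rbpjl on the opposite strand, exons of Runx2 overlap the antisense gene Runx2os1, and exons of Ostn overlap the antisense gene Gm32312. Rbpjl had 75 UMIs in the dural cells and Runx2os1 had 10. The H19 transcript also holds Mir675 on its own strand.

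Runx2 encodes the transcription factor at the head of the osteoblast lineage, and its own promoter is shown because Runx proteins bind a short motif, here searched as the letters TGTGGT or, on the other strand, ACCACA. RefSeq start-site windows on GRCm38.p6 (300 bases, from 250 before to 50 after the start) were present for Matn4, Postn, Alpl, Clec11a and Runx2, 8 windows in all. Windows for Mgp, H19, Ostn, Smoc2 and Comp were not used here. Of these 8 windows the 1 of Runx2 held the motif, with 3 matches that all read ACCACA on the gene's strand and began 80 bases before and 23 and 31 bases after the start site. The motif was found in 16.8% of 32851 windows of this length, and 0.183% of them, 60 windows, held 3 or more. The sequence lies at chr17:44814578-44814877 on the minus strand and is given 5′ to 3′, with the matches in capitals. A match of letters is a description and not a site.
Runx2: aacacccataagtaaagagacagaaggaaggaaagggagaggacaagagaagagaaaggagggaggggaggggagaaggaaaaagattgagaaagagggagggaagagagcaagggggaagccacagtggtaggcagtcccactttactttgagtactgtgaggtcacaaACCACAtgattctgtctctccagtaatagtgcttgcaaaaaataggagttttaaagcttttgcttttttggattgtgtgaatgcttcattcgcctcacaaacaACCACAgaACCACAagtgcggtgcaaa

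The levels of the 10 genes were first compared over the 11 cell classes that had enough cells in both bone-associated libraries. The mesenchymal-like class was the highest for 8 genes, Alpl, Ostn, Clec11a, Runx2, H19, Smoc2, Comp and Matn4, and in each of them its 2 libraries lay above both libraries of the next named class. Single clusters reached the dural level for Alpl (the Gkn3-led endothelial cells of these libraries, which the marker rule left unnamed, at 474 and 355 CPM) and for Runx2 (1 of the 2 monocyte clusters). For Mgp the mesenchymal-like and pericyte-like classes overlapped. For Postn the mesenchymal-like class was the third among the named classes. Unnamed clusters with VSMC, pericyte and mesenchymal markers stood higher for Postn, at 270 to 673 CPM. Unnamed clusters held 584 bone-associated cells in all. These are levels within 1 gene across classes, since levels of different genes were not scaled by length. The share of all genes with the mesenchymal-like class highest and apart is not given here, so the count of 8 has no background.

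**Figure D1:**
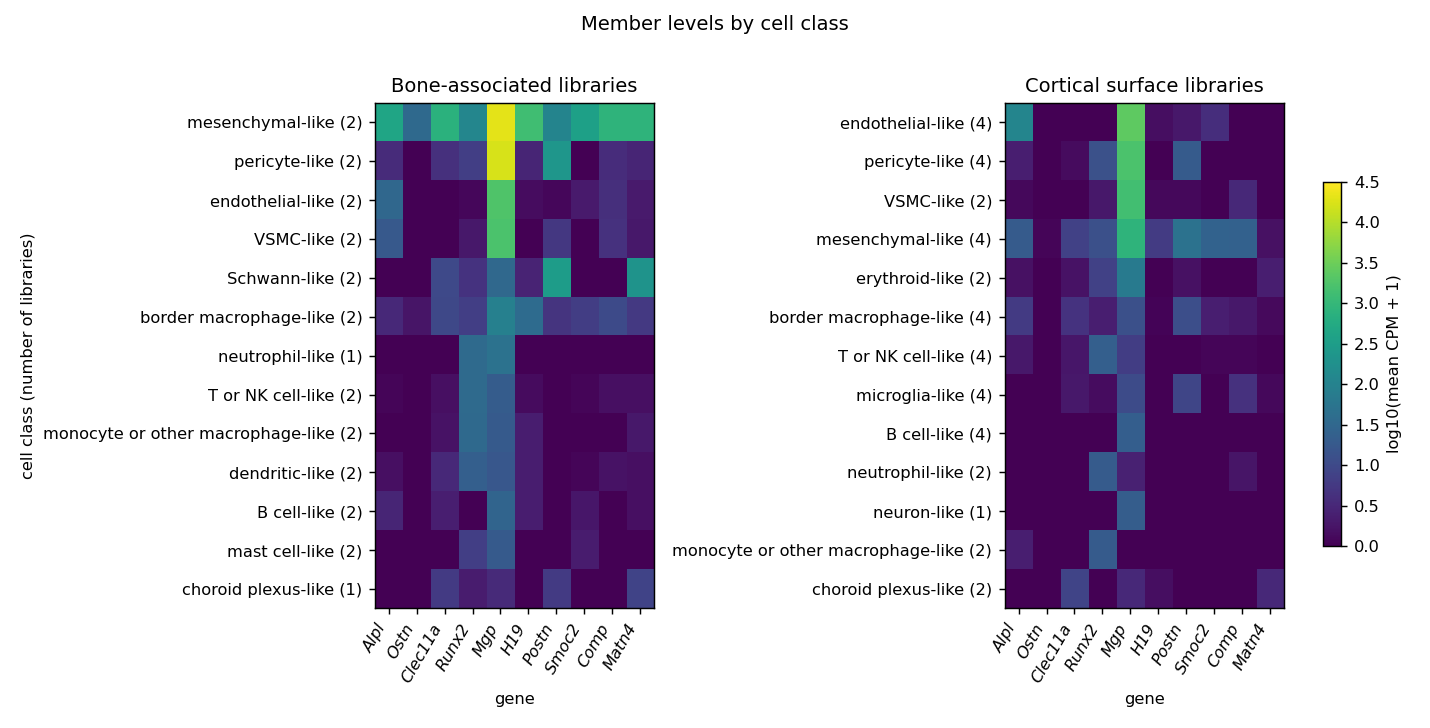
Mean level of each gene (columns) in each cell class (rows, with the number of libraries averaged in parentheses) of the bone-associated libraries (left) and the cortical surface libraries (right), with colour giving log10 of the mean CPM + 1. In the bone-associated libraries the mesenchymal-like row is the brightest for every gene but Postn, which among the named classes is brighter in Schwann-like and pericyte-like cells, and Mgp is nearly as bright in pericyte-like cells.

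Among the genes of mineral control, Alpl stood at 446 and 436 CPM in the dural cells of replicates 1 and 2, at 35.7 and 27.2 CPM in endothelial-like cells and at 16.9 and 17.4 CPM in VSMC-like cells (vascular smooth muscle). These 3 classes did not overlap, but the unnamed Gkn3-led cells overlapped the dural cells. Every other named class was at or below 5.21 CPM in each library. Mgp was at 15892 and 24649 CPM in dural cells and at 14017 and 20093 CPM in pericyte-like cells, so the order of these 2 classes was not resolved. Endothelial-like cells (1661 and 2034 CPM) and VSMC-like cells (1343 and 2028 CPM) followed and overlapped each other. In T or NK cell-like cells, which are not known to make it, Mgp was at 9.01 and 30.0 CPM.

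Runx2 was at 146 and 85.1 CPM in dural cells. T or NK cell-like cells (36.9 and 32.4 CPM) and monocyte or other macrophage-like cells (30.9 and 36.7 CPM) came next and overlapped, followed by dendritic-like cells at 25.1 and 18.7 CPM. The monocyte class was uneven: its cluster led by Cd300e, Adgre4 and Eno3 (14 and 32 cells) stood at 85.0 and 145 CPM, the range of the dural cells, and its other cluster at 11.9 and 18.1 CPM. B cell-like cells had none of its UMIs in either library. Runx factors are known in lymphoid and myeloid cells as well as in bone.

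Ostn was at 11.4 and 56.7 CPM in dural cells, and outside them its UMIs came from border macrophage-like cells alone among the 10 other classes, at 0 and 1.55 CPM. Clec11a was at 679 and 796 CPM in dural cells, and the highest level in any library of another class was 17.7 CPM, in Schwann-like cells. The lower of the Ostn levels rested on 7 UMIs in 5 of 37 cells, in replicate 1.

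Of the matrix genes, Smoc2 (394 and 333 CPM) and Comp (824 and 843 CPM) had dural levels far above border macrophage-like cells, the next class, which reached 8.75 CPM for Smoc2 and 18.6 CPM for Comp. Matn4 was at 939 and 743 CPM in dural cells and at 266 and 134 CPM in Schwann-like cells, which did not overlap. Matn4 is a matrilin, and it was also found in all 8 cells of the OPC-like class of the cortical surface libraries (exact 95% confidence interval of the share 63.1 to 100%). Postn departed from this pattern, with 488 and 127 CPM in Schwann-like cells, 332 and 121 CPM in pericyte-like cells and 119 and 96.3 CPM in dural cells. Schwann-like and pericyte-like cells overlapped, and the dural range lay just under both. H19 was at 1238 and 1384 CPM in dural cells and at 39.4 and 34.2 CPM in border macrophage-like cells, with the other 9 classes at or below 3.91 CPM.

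In the cortical surface libraries the same genes had another order of classes. Alpl was the highest in endothelial-like cells (70.9 to 151 CPM over the 4 libraries), above the mesenchymal-like cells of every library. Mgp was also the highest there by its mean, and its 1382 to 3059 CPM overlapped the 1262 to 2359 CPM of pericyte-like cells. This endothelial-like class held Gkn3-led cells, which were left unnamed in the bone-associated libraries, so the classes were not alike. Without the Gkn3-led cells its Mgp was at 171 to 357 CPM, below the pericyte-like cells. Its Alpl was then at 44.8 to 68.4 CPM, which overlapped the mesenchymal-like cells at 0 to 66.4 CPM. Runx2 was the highest by its mean in T or NK cell-like cells (10.4 to 40.8 CPM), which overlapped the mesenchymal-like cells (6.42 to 15.4 CPM). Postn, Smoc2 and Comp had their highest mean in mesenchymal-like cells, and the Smoc2 range of 19.3 to 32.9 CPM did not overlap the next class, endothelial-like cells at 0 to 4.78 CPM. Ostn had 1 UMI over all named classes with enough cells, in mesenchymal-like cells.

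Most dural cells held UMIs of several of the genes. The share of the 295 cells with at least 1 UMI was 99.0% for Mgp, 85.4% for Clec11a, 80.0% for Smoc2, 67.1% for H19, 61.4% for Matn4, 60.7% for Alpl, 54.2% for Runx2, 50.8% for Comp, 25.8% for Postn and 17.6% for Ostn. In T or NK cell-like cells of the same libraries (603 cells, median depth 6109 UMIs against 14611 in dural cells) the share was at most 0.498% for 8 of the genes, which is the background that free RNA could give. It was 15.1% for Mgp and 18.6% for Runx2, a gene known in T cells. When every cell was thinned to 1500 UMIs, which left out 3 dural and 13 leptomeningeal cells, the shares in dural cells were lower and ranged from 5.48% for Ostn to 97.3% for Mgp.

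Thinned in this way, Clec11a was found in 57.2% of dural cells (95% exact interval 51.3 to 62.9%) and 0.746% of leptomeningeal cells (0.0905 to 2.67%). H19 was found in 51.7% (45.8 to 57.6%) and 0.373% (0.00945 to 2.06%). Postn was the closest, at 8.90% (5.90 to 12.8%) and 4.85% (2.61 to 8.15%), with overlapping intervals. All intervals cover counting error only and treat the cells as independent.

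The main comparison asked how dural cells differ from leptomeningeal cells, 2 libraries against 4. Of the 10 genes, 9 were called higher in dural cells and none lower, where 8.41% of all 9556 tested genes were called higher and 5.69% lower. A call needed an adjusted p under 0.05 and a log2 fold change of at least 1.3 in edgeR's quasi-likelihood test on UMI sums per library. The exception was Postn. The median log2 fold change was 4.51 over the members and 0.01 over all tested genes. Genes were tested if more than 10% of cells of either group had a UMI. Alpl, Ostn, Clec11a, Runx2, H19, Comp and Matn4 passed this filter in dural cells alone, with leptomeningeal shares of 0.356% (Ostn) to 9.96% (Comp). Genes that pass in this way could hardly be called lower, so the filter may tilt the count and median of the members toward higher, which was not tested. Most of the 10 genes were named by the study for this contrast, so their direction is not independent evidence. Together they took 2.07% and 2.94% of the UMIs of dural cells and 0.0252% to 0.188% of those of leptomeningeal cells.

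**Figure D2:**
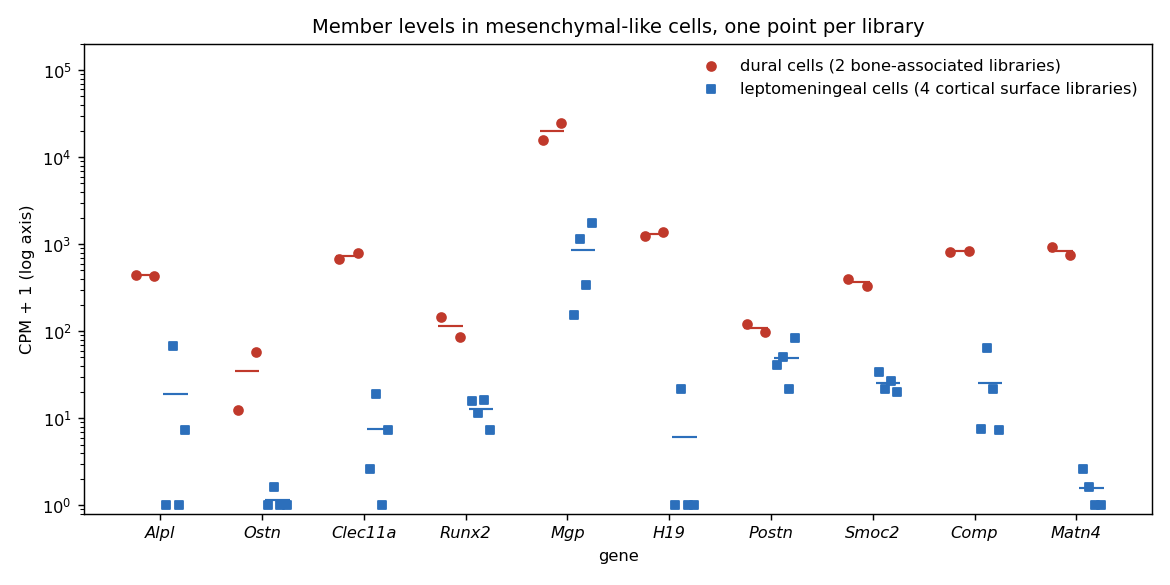
Level of each gene in mesenchymal-like cells, with 1 point per library (circles, 2 bone-associated libraries; squares, 4 cortical surface libraries), CPM + 1 on a log axis, and a line at the group mean. Both circles lie above all 4 squares for every gene, and the gap is the smallest for Postn, where the upper square is at 83.5 CPM and the lower circle at 96.3 CPM. The share of all genes with such a gap is not given.

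For Alpl, the leptomeningeal level was 0, 66.4, 0 and 6.42 CPM in cortical surface replicates 1 to 4, against 446 and 436 CPM in dural cells. The groups did not overlap, and the log2 fold change was 3.85 ± 0.67 (SE; edgeR adjusted p = 0.000513). Mgp stood at 155, 1147, 339 and 1754 CPM in leptomeningeal cells which spread widely but were all below both dural values. Its log2 fold change was 4.40 ± 0.68 (adjusted p = 0.000171). The leptomeningeal Mgp levels rested on few cells, as the 4 highest cells held 85.1%, 54.1%, 97.0% and 85.3% of the Mgp UMIs in replicates 1 to 4.

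Runx2 was low but detected in every leptomeningeal group, at 14.8, 10.6, 15.4 and 6.42 CPM, and its log2 fold change was 3.16 ± 0.36 (edgeR adjusted p = 7.89e-06). Ostn had 1 UMI in all leptomeningeal cells, in replicate 2, against 223 UMIs in dural cells. The ratio of the pooled levels was 129.6 (exact 95% counting interval 23.0 to 5141), and the fitted log2 fold change of 6.29 ± 0.91 (adjusted p = 8.80e-05) depends on the prior count. Clec11a was at 1.65, 18.0, 0 and 6.42 CPM in leptomeningeal cells. Its log2 fold change was 6.097 ± 0.48 (adjusted p = 2.53e-07).

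The matrix genes covered the whole range of differences. Matn4 had 2 UMIs in the leptomeningeal cells and 3405 in the dural cells, a pooled ratio of 989 (exact 95% counting interval 274 to 8172), and its edgeR adjusted p was 1.64e-09. Comp was at 6.59, 63.3, 20.5 and 6.42 CPM in leptomeningeal cells and rose by a log2 fold change of 4.62 ± 0.49 (adjusted p = 4.96e-06). Smoc2 varied little between leptomeningeal groups, at 32.9, 20.5, 25.6 and 19.3 CPM, with a log2 fold change of 3.80 ± 0.29 (adjusted p = 2.12e-07). Postn was at 39.5, 50.3, 20.5 and 83.5 CPM in leptomeningeal cells. Its log2 fold change of 1.10 ± 0.36 had an adjusted p of 0.0429 but missed the limit of 1.3, so it was not called. Without the 13 cells of D3 it was 0.79 (adjusted p = 0.153), while the other 9 genes were still called.

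H19 had no UMI in cortical surface replicates 1, 3 and 4 and 20.5 CPM in replicate 2, and its log2 fold change was 6.90 ± 0.57 (edgeR adjusted p = 3.76e-07). Several of the leptomeningeal levels rested on a few cells of replicate 2. All 33 H19 UMIs came from 2 of its 146 cells, 107 of the 108 Alpl UMIs came from 5 of its cells (51 from 1 cell), and 29 of the 31 Clec11a UMIs came from 6. Of the 146 cells 3 held at least 2 of the 3 genes, and 1 held 5 or more of the 10. Without this replicate the log2 fold change was 8.49 for Alpl (1 leptomeningeal UMI left, pooled ratio 419, exact 95% interval 75.1 to 16545), 8.33 for Clec11a and 6.34 for Comp. H19 was then at least 435-fold higher and Ostn at least 16.1-fold higher in dural cells, taking 3 counts over the leptomeningeal group as the floor. For Ostn this bound was 3.66-fold from bone-associated replicate 1 alone and 18.1-fold from replicate 2 alone. Other libraries also moved a value: Mgp had 5.14 without cortical surface replicate 4, and Ostn had 6.89 and 4.23 (adjusted p = 0.0158) without bone-associated replicates 1 and 2.

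The dural level of some genes was also carried by few cells in the smaller library. In bone-associated replicate 1, with 37 dural cells, the 4 highest cells held 82.7% of the Comp UMIs, 63.4% of the Alpl UMIs and 61.5% of the Matn4 UMIs, and 1 cell alone held 271 of 504 Comp UMIs. The Comp level over both libraries was 834 ± 13.7 CPM (SD, n = 2).

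Whether the preparations differed in the same way in other cells was asked by testing the interaction of preparation with class, mesenchymal-like against endothelial-like cells. For 4 genes the dural over leptomeningeal difference exceeded the one in endothelial-like cells, where 5.08% of 10149 genes were called in this direction. The interaction was 5.88 ± 0.67 for Alpl (edgeR adjusted p = 1.46e-06), 5.26 ± 0.67 for Mgp (6.23e-06), 5.51 ± 0.78 for Smoc2 (2.13e-05) and 7.69 ± 1.53 for H19 (0.00167) on the log2 scale. In endothelial-like cells of the bone-associated and cortical surface libraries, H19 had only 2 and 3 UMIs and Smoc2 only 4 and 12. Both missed the detection filter in these cells. The H19 call was lost at up to 20% mitochondrial UMIs, without cortical surface replicate 2, in DESeq2 and without the Gkn3-led clusters described next. Postn had 3.23 with an adjusted p of 0.119, from 1 and 6 endothelial UMIs. For Ostn, Clec11a, Runx2, Comp and Matn4 no UMI was found in endothelial-like cells of at least 1 preparation, so the term was not resolved, and none was called. Comp, with 13 bone-associated and 0 cortical surface endothelial UMIs, had a fitted term of -0.40 ± 0.38. The fitted terms were 1.49 for Runx2 (1 and 0 UMIs) and 6.66 for Matn4 (4 and 0). Ostn and Clec11a had 0 UMIs in both preparations.

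Alpl and Mgp were the members that passed the detection filter in endothelial-like cells. In these cells Alpl was at 35.7 and 27.2 CPM in the bone-associated libraries and at 151, 101, 70.9 and 116 CPM in the cortical surface libraries. The groups did not overlap, and Alpl was called lower by a log2 fold change of -1.85 ± 0.26 (edgeR adjusted p = 6.92e-05), where 2.11% of 7712 genes were called lower. Mgp was at 1661 and 2034 CPM against 3059, 2313, 1382 and 2747 CPM, which overlapped (log2 fold change -0.36 ± 0.28, adjusted p = 0.475).

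These values depended on which clusters counted as endothelial. A cluster led by Gkn3, Fbln5 and Cytl1, genes known from arterial endothelium, was named endothelial-like in the cortical surface libraries (77 cells) but left unnamed in the bone-associated libraries (151 cells) by the marker rule. Within these cells Alpl was at 474 and 355 CPM in the bone-associated libraries and at 427, 353, 342 and 422 CPM in the cortical surface libraries, which overlapped. The value of cortical surface replicate 3 came from 5 cells. In the other endothelial-like cells it was at 35.7 and 27.2 CPM against 68.4, 66.4, 44.8 and 48.4 CPM. Counted in both preparations, the Gkn3-led cells left Alpl with a log2 fold change of 0.11 (edgeR adjusted p = 0.804). Left out of both, they left it with -0.91 (adjusted p = 0.0134), under the limit of 1.3.

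Mgp was high in the same clusters. The Gkn3-led cells had 6839 and 9421 CPM in the bone-associated and 12355, 16479, 13736 and 14313 CPM in the cortical surface libraries. The other endothelial-like cells had 1661 and 2034 CPM against 261, 357, 194 and 171 CPM. With the Gkn3-led cells left out of both preparations, Mgp was called higher in the bone-associated libraries, with a log2 fold change of 2.91 (edgeR adjusted p = 4.47e-07). The preparations were clustered separately, and the level differed between the clusters of this class. In the bone-associated libraries Mgp was at 5660 and 5867 CPM in the cluster led by Selp and Vwf (23 and 84 cells), at 716 and 745 CPM in the one led by Slco1a4 and at 53.1 and 129 CPM in the one led by Igfbp3 and Gpihbp1. In the cortical surface libraries it was at 272 to 404 CPM in the cluster led by Vwf and at 21.2 to 403 CPM in the one led by Spock2. The share of each kind of vessel in the class and the level within it cannot be told apart in the class values. The interaction of Mgp was then 1.96 (adjusted p = 0.047) and that of Alpl 4.97, and with these cells counted in both they were 4.32 and 3.84. Mesenchymal markers summed to 76.0 and 75.6 CPM in bone-associated and 13.6 to 57.4 CPM in cortical surface endothelial-like cells, and their part in the result was not tested.

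**Figure D3:**
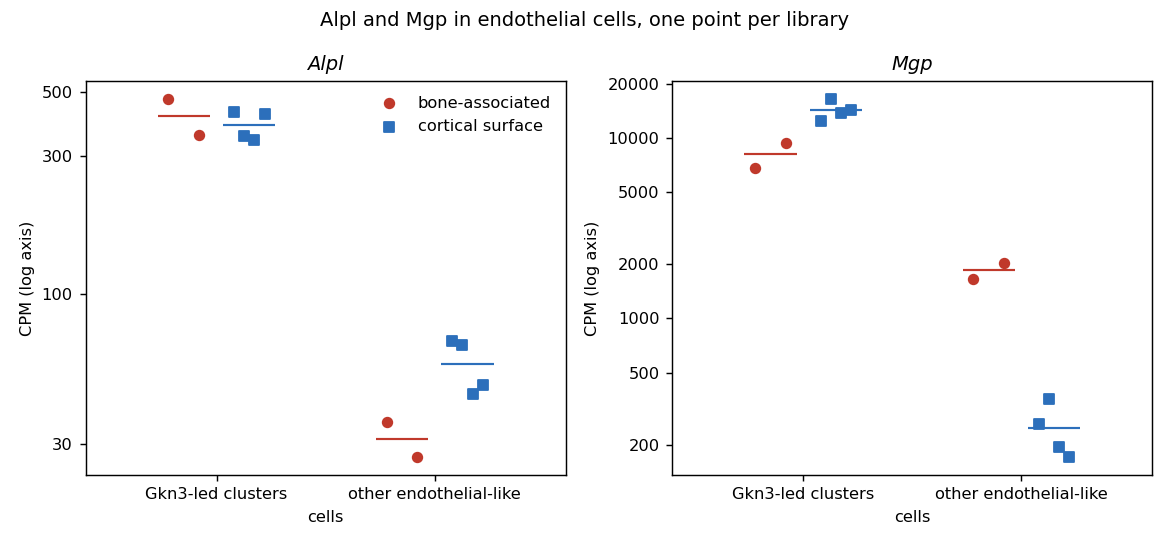
Level of Alpl (left) and Mgp (right) in the Gkn3-led clusters and in the other endothelial-like cells, with 1 point per library, CPM on a log axis and a line at the mean of each group of libraries. Both genes are higher in the Gkn3-led clusters in every library, and Mgp in the other endothelial-like cells is at 1661 and 2034 CPM in the bone-associated libraries against 171 to 357 CPM in the cortical surface libraries.

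In pericyte-like cells 2 members passed the detection filter, Mgp and Postn, and both were called higher in the bone-associated libraries, where 5.73% of 7144 genes were called higher. Mgp was at 14017 and 20093 CPM against 1393, 2359, 1584 and 1262 CPM, a log2 fold change of 3.55 ± 0.26 (edgeR adjusted p = 8.29e-08). Postn was at 332 and 121 CPM against 17.1, 9.85, 28.9 and 18.2 CPM, a log2 fold change of 3.78 ± 0.39 (adjusted p = 3.77e-06). With 33 UMIs in 447 cortical surface pericyte-like cells, Postn passed the filter through the bone-associated side alone and could hardly be called lower. Both calls held in all 17 alternatives. No alternative was made for clusters led by Ccl19 and Colec11, named pericyte-like in the bone-associated libraries but unnamed in the cortical surface libraries. Mgp in them was at 4488 CPM (bone-associated replicate 2, 22 cells) against 2346 and 4397 CPM (cortical surface replicates 1 and 2). Postn was at 76.3 CPM against 21.0 and 43.7 CPM. In the other bone-associated pericyte-like clusters with enough cells Mgp was at 22627 to 24722 CPM. The pericyte-like cells of the bone-associated libraries also had more mesenchymal marker RNA, summed to 3314 and 2473 CPM against 1027 to 1309 CPM, and its part in the result was not tested. Of the members that missed the filter, Smoc2 and Ostn had 0 UMIs in the same pericyte-like cells. The others had UMIs there: Runx2 9, Clec11a 5, Alpl 4, H19 3, Matn4 3 and Comp 1.

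VSMC-like cells were present in 2 libraries of each preparation, and 4.04% of 8395 genes were called higher there in the bone-associated libraries. Alpl was at 16.9 and 17.4 CPM against 0 and 0.49 CPM, from 55 and 1 UMIs, and was called higher with a log2 fold change of 5.64 ± 0.76 (edgeR adjusted p = 3.90e-06). It passed the detection filter through the bone-associated side alone and could hardly be called lower. Mgp was at 1343 and 2028 CPM against 977 and 1817 CPM, which overlapped (log2 fold change 0.38 ± 0.30, adjusted p = 0.572). Clusters with both VSMC and pericyte markers were left unnamed in both preparations, and no alternative was made for them. In the bone-associated ones with enough cells Mgp was at 3878 to 7487 CPM and Alpl at 12.9 to 94.3 CPM. In a cortical surface one, led by Sncg and Ano1, Mgp was at 2834 CPM and Alpl at 0 CPM (replicate 4, 12 cells).

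Dural cells were not uniform in these genes. They fell into 3 clusters, which are called D1, D2 and D3 here and were made without the 10 genes. D1 (190 cells, 20 and 170 in the 2 libraries) was led by H19, Comp, Gpx3, Matn4, Fmod, Clec11a and Chad, D2 (92 cells, 12 and 80) by Apod, Dcn, Lum, Igfbp6 and Smoc2, and D3 (13 cells, 5 and 8) by Ccl11, Cxcl10, Nts, Vtn and Il6. D3 was a mixed cluster. Its leading genes held 6 of 8 mesenchymal and 3 of 7 pericyte markers, and summed pericyte markers stood at 6925 and 3349 CPM in it, against 57.8 to 145 CPM in D1 and D2. It shared Ccl11 and other leading genes with the pericyte-like clusters. The leading genes of D2 also held Aldh1a2, which the study describes as expressed in the developing leptomeninges. Apod and Dcn were leading genes of the leptomeningeal clusters as well. Whether D2 held leptomeningeal cells was not tested. Because clusters are made from the same cells, the differences between them are given as a description, with no test.

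Of the 10 genes, 7 were higher in D1 than in D2 in both libraries: Matn4 (19.5-fold and 13.2-fold in replicates 1 and 2), Comp (12.2 and 8.04), H19 (9.91 and 5.25), Runx2 (4.58 and 3.02), Clec11a (3.11 and 4.75), Alpl (2.00 and 4.44) and Ostn (2.71 and 28.7, from 1 and 3 UMIs in D2). Mgp was nearly level, at 1.13-fold and 1.39-fold. Smoc2 and Postn ran the other way. Smoc2 was at 671 and 590 CPM in D2 against 356 and 240 CPM in D1, and Postn was at 139 and 163 CPM in D2 against 57.4 and 57.4 CPM in D1. In D3, Postn was higher again, at 360 and 454 CPM, with a UMI in 92.3% of the 13 cells, while Smoc2, Comp and Ostn had none. The part of the pericyte marker RNA in the Postn level of D3 was not tested. The share of all genes that were higher in D1 than in D2 in both libraries is not given here, so the count of 7 has no background.

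**Figure D4:**
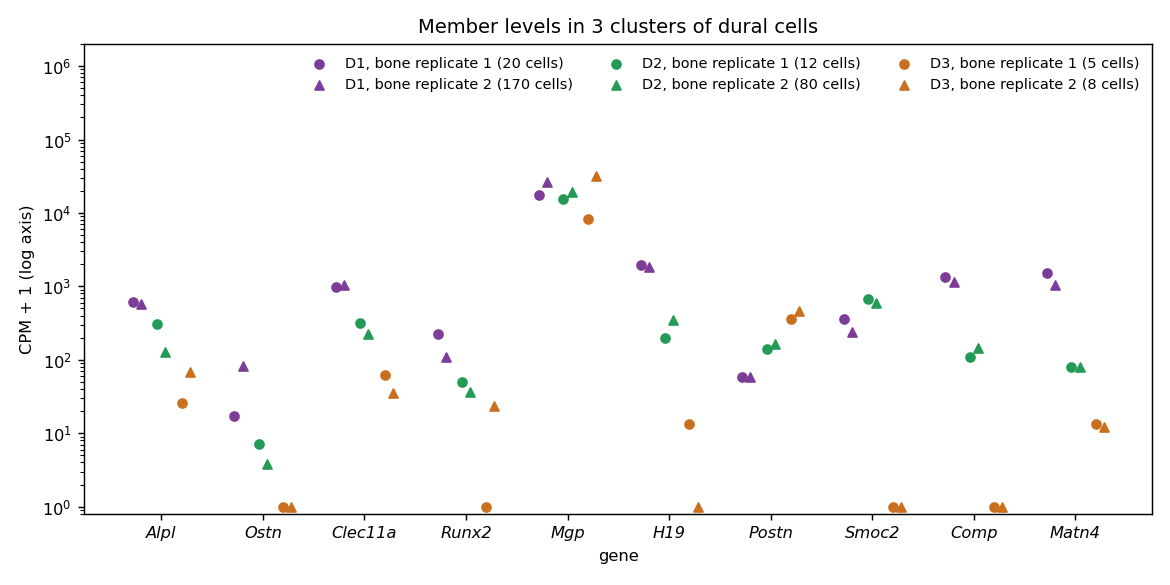
Level of each gene in the dural clusters D1, D2 and D3, with 1 point per bone-associated library and CPM + 1 on a log axis. Matn4, Comp and H19 fall from D1 to D2 to D3 in both libraries, Mgp is at 8179 CPM or more in every point, and Postn is the highest in D3.

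Some other bone and cartilage genes also had different levels in D1 and D2, again given as a description over both libraries. Cartilage matrix genes Chad and Acan were at 1184 and 44.5 CPM in D1 and at 364 and 1.62 CPM in D2, and the tendon and ligament gene Tnmd was at 211 and 39.6 CPM. Chad differed between bone-associated replicates 1 and 2, at 380 and 1294 CPM in D1 and at 0 and 421 CPM in D2. Its D2 level came from 451 UMIs in 9 of the 80 cells of replicate 2. The osteoblast transcription factors Dlx5 (47.1 and 0 CPM), Msx2 (41.8 and 9.69 CPM) and Sp7 (28.5 and 6.46 CPM) were also higher in D1 than D2. Epyc, a small proteoglycan of cartilage, was at 21.6 CPM in D1 and 151 CPM in D2, and Smpd3 at 7.63 and 42.0 CPM.

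Cells with several of the 10 genes were common among dural cells. The median dural cell had UMIs of 6 members (quartiles 4 and 8; 5 and 6 in the 2 libraries), 211 of 295 cells (71.5%) had at least 5, 95 had at least 8, and 8 had all 10. The median leptomeningeal cell had 1, and 125 of 281 (44.5%) had none. Thinned to 1500 UMIs, the medians were 4 and 0. By cluster the medians were 7 in D1, 4 in D2 and 3 in D3, or 5, 2 and 1 after thinning.

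Which genes went together within a cell was then asked over the 45 pairs of members. The number of dural cells with both genes was above the product of the separate shares in 31 pairs, in 27 and 32 pairs of the single libraries and in 31 pairs after thinning. Ostn and Comp had the highest ratio, with 41 cells against 26.4 from the product (1.55), followed by Comp and Matn4 with 137 against 92.0 (1.49) and Alpl and Ostn (1.39). The ratios are over cells of 2 libraries that share depth and cluster, so no p is given.

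Over all dural cells Postn was below the product with 8 of the 9 others. Postn and Smoc2 had the lowest ratio of all pairs, 46 cells against 60.8 (0.757), although both were higher in D2 than in D1, and H19 and Postn had 0.823. After thinning these were 0.567 and 0.372. The dural cells include the 13 of D3, where Postn was found in 92.3% of cells and Smoc2 in none. Within D1 Postn was above the product with 7 of the 9, Runx2 having the highest ratio (1.299) and Smoc2 the lowest (0.918). Within D1 after thinning it was above the product with 4 of the 9. Mgp was found in nearly every dural cell and its pairs had ratios of 0.991 to 1.01.

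The 7 genes that were higher in D1 than in D2, grouped after their values were seen, form 21 pairs. All 21 were above the product over the dural cells, as were 19 after thinning. As the genes were chosen by their difference between clusters of these same cells, these counts follow in part from the choice. Within D1 alone all 21 were still above it, with ratios of 1.00 to 1.14, and within D1 after thinning 12 were, with ratios of 0.499 to 1.46. Comp and Matn4 had a ratio of 1.74 over all thinned cells.

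**Figure D5:**
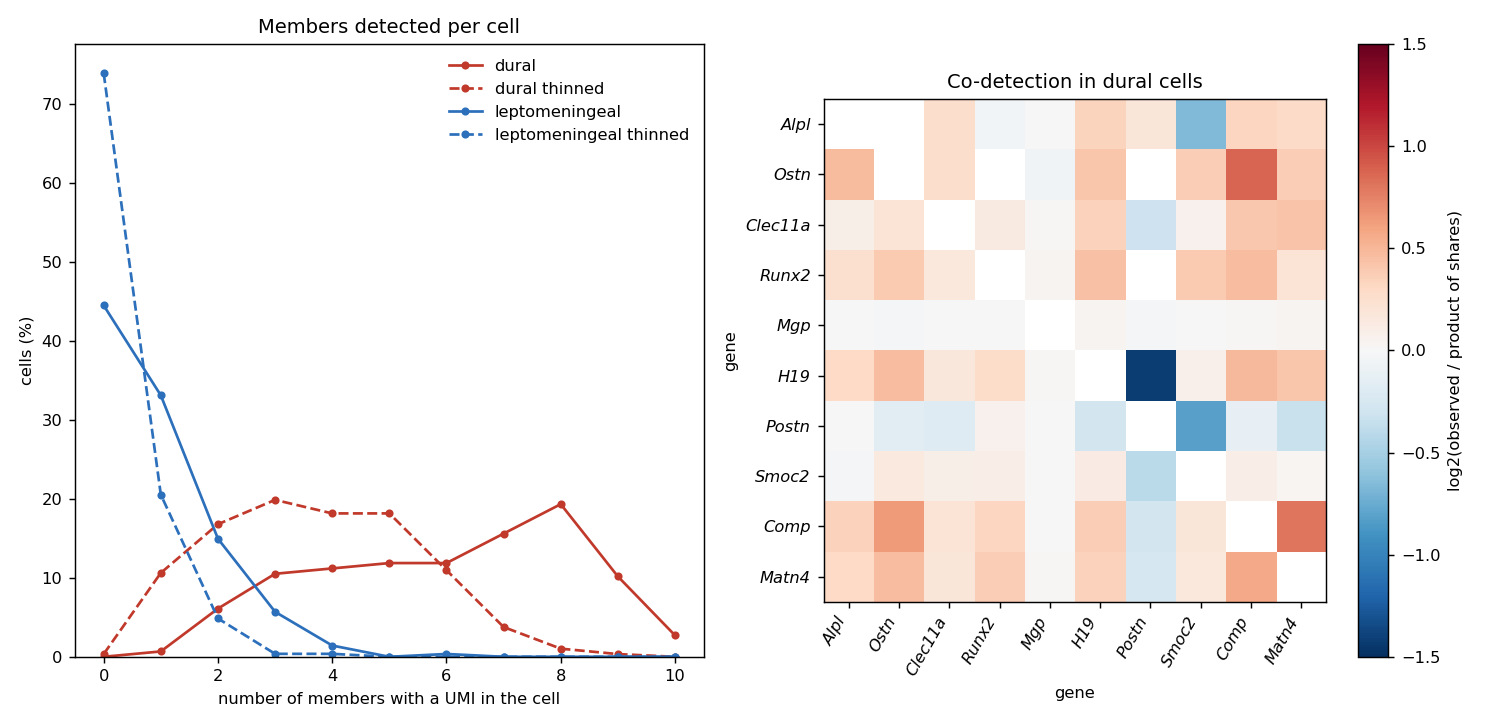
Left, percentage of dural and leptomeningeal cells by the number of the 10 genes with a UMI, as counted and thinned to 1500 UMIs. Right, log2 of the observed over the product number of dural cells with both genes, for all 295 cells below the diagonal and for thinned cells above it (pairs with fewer than 5 cells from the product are blank). Dural cells peak at 8 genes before thinning, leptomeningeal cells at 0, and the row of Postn is mostly below 0.

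The genes were set beside 71 others from lists of the osteoblast lineage, mineral control, cartilage, tendon, ligament and periosteum, and partners and paralogs of the members, with the same comparison of dural with leptomeningeal cells (8.41% of 9556 genes higher and 5.69% lower). Of 17 osteoblast lineage genes, 8 passed the detection filter and 5 were called higher (Dlx5, Msx2, Pth1r, Sp7 and Twist1), with none lower and a median log2 fold change of 2.07. Dlx5 (39.2 and 31.5 CPM) and Msx2 (22.9 and 33.6 CPM), which encode homeodomain factors, had no leptomeningeal UMI and were at least 27.9-fold and 27.5-fold higher. Sp7, the factor that acts after Runx2 in the lineage, was at 27.8 and 21.0 CPM against 0 to 4.97 CPM (log2 fold change 2.57 ± 0.52, edgeR adjusted p = 0.00181). Pth1r, the receptor of parathyroid hormone, had 2.24 ± 0.32 (adjusted p = 7.56e-05).

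Genes of mature osteoblasts were found in few dural cells. The osteocalcin genes Bglap (6.54 and 27.3 CPM, in 12 of 295 cells) and Bglap2 (19.6 and 43.3 CPM, in 16 cells) had no leptomeningeal UMI but missed the filter of 10% of cells, so they were not tested. Ibsp, the bone sialoprotein gene, had 0 UMIs and Dmp1, an osteocyte gene, had 1. The osteoclast list, whose summed level was 367 to 389 CPM in dural cells, was at 25.6 to 96.4 CPM in leptomeningeal cells. In dural cells Ctsk, a protease gene that is not limited to osteoclasts, had 358 and 333 CPM of it and Acp5 31.1 and 33.3 CPM, while Ocstamp and Atp6v0d2 had 1 UMI each and Calcr, Dcstamp and Oscar had none.

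Of 10 genes of mineral control, 5 were tested, 1 was higher and 1 lower, with a median of 0.21. Smpd3, a sphingomyelinase needed for normal mineralization, had a log2 fold change of 2.31 ± 0.51 (edgeR adjusted p = 0.00388). Enpp1, which makes the pyrophosphate that Alpl removes, was at 24.5 and 15.2 CPM in dural cells and at 153, 129, 149 and 128 CPM in leptomeningeal cells and fell by 3.01 ± 0.33 on the log2 scale (adjusted p = 6.09e-06). The dural and leptomeningeal groups did not overlap for either Alpl or Enpp1, and the order of the groups was opposite. The other tested genes of the list, Ank, Slc20a1 and Slc20a2, were not called, and their groups overlapped. Ank was at 55.6 and 32.8 CPM in dural cells and at 18.1, 19.9, 15.4 and 38.5 CPM in leptomeningeal cells.

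Of 24 cartilage genes, 11 were tested, 7 were higher (Acan, Chad, Cilp2, Col11a1, Epyc, Matn2 and Sox6) and 1 was lower, with a median of 4.08. Of the 7, all but Col11a1 passed the detection filter in dural cells alone, with leptomeningeal shares of 0% (Acan and Chad) to 5.69% (Cilp2). Col9a2, the lower gene, passed in leptomeningeal cells alone. Of the genes called higher in the other lists, Dlx5, Msx2, Sp7, Smpd3, Tnmd, Aspn, Mkx, Thbs3, Smoc1, Tgfbi and Npr3 also passed in dural cells alone. Dural cells were deeper, so the filter may tilt the counts and medians of tested genes toward higher, which was not tested. Chad, the chondroadherin gene, was at 227 and 1019 CPM in dural cells with no leptomeningeal UMI, so it was at least 778-fold higher. Replicate 2 carried that bound, which was 195-fold for replicate 1 alone and 872-fold for replicate 2 alone. Acan, which encodes aggrecan, was at 47.4 and 28.1 CPM and at least 26.3-fold higher (40.6-fold and 24.1-fold for replicates 1 and 2 alone). Col9a2, a chain of the cartilage collagen IX, was at 11.4 and 4.73 CPM against 183, 173, 221 and 77.1 CPM and fell by 4.76 ± 0.46 on the log2 scale (edgeR adjusted p = 1.82e-06).

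The tendon, ligament and periosteum list had 7 of 10 genes tested and 4 higher (Aspn, Mkx, Ogn and Tnmd), with a median of 2.06. Tnmd, which marks tendon and ligament cells, was at 137 and 158 CPM with no leptomeningeal UMI and was at least 133-fold higher. Mkx, a homeobox gene of tendon, had 85 and 2 UMIs, a pooled ratio of 24.7 (exact 95% counting interval 6.63 to 207). Of 10 partners and paralogs of the members, 9 were tested and 7 were higher, with a median of 1.91. Among them were the thrombospondins Thbs3 (3.82 ± 0.45, edgeR adjusted p = 1.14e-05) and Thbs1 (3.61 ± 0.34, 1.39e-06), the family of Comp, and Smoc1 (2.97 ± 0.33, 7.93e-06), the paralog of Smoc2. Npr3, the clearance receptor that Ostn binds, was at 29.4 and 48.3 CPM against 1.65, 13.7, 0 and 6.42 CPM (2.24 ± 0.52, 0.00539).

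The genes most like each member across the 13 classes of the bone-associated libraries were found by Pearson's r of log levels over 13436 genes, as a description. Ostn was nearest to Slc47a1 (r = 1.00) and Epyc, H19 to Tmem119 (0.97), Shisa3 and Bglap, Comp to Shisa3 (0.97) and Prrx2, Clec11a to Cemip (0.95) and Nog, and Alpl to Cdo1 (0.94). Smoc2 was nearest to Myoc (0.98) with Ostn also among its 3 nearest, Postn to Lama2 (0.97), and Mgp to C1qtnf2 (0.95). The nearest genes of Matn4 and Runx2 were the ones that overlap them on the other strand, Rbpjl (0.95) and Runx2os1 (0.80). The 13 points of each correlation share libraries and depth. Ostn was at 34.1 CPM in the mesenchymal-like class and at most 0.776 CPM in any other, so that class mostly sets its r. The same holds in part for Clec11a, H19, Smoc2 and Comp. For these genes a high r says little more than that both genes are found mainly in dural cells. The study reports Slc47a1 as an arachnoid mRNA, and whether arachnoid cells were among the cells called dural was not tested.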

How the data were processed

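The deposited files are 10x Genomics count matrices, 1 per library, with 31053 gene rows and 951 to 5602 barcodes; their values, as the authors deposited them, are counts of UMIs per gene and cell, not normalized. The labels name Cell Ranger 3 and the mm10 build while the matrix headers name cellranger 6.1.2, and which run gave the values is not given in the sources used here. The 10 genes and the other gene lists were chosen with earlier results of these data known.

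Cells with at least 500 detected genes and at most 10% mitochondrial UMIs were kept, and doublets were called from simulated pairs within each library and removed. Each preparation was clustered (2000 variable genes, 30 components, 15 neighbours, Leiden resolution 1.5) without the 10 genes and lists. A cluster was named from marker lists as a class "like" a cell type. Clusters whose leading genes were markers of 3 or more classes were left unnamed, a rule chosen after seeing the data. UMIs were summed per library and class, classes with fewer than 10 cells in a library were left out of it (levels of the Gkn3-led cells alone are given for every library), and edgeR 4.0.16 (R 4.3.3; TMM factors, quasi-likelihood test, 2-sided, Benjamini-Hochberg adjustment over all tested genes) was fitted to genes with a UMI in more than 10% of cells on either side of the comparison. The interaction fit had the library as a block. Calls needed an adjusted p under 0.05 with a log2 fold change of 1.3 or more in either direction, and the SE was taken from the test statistic. On simulated counts for the dural and leptomeningeal libraries the fit recovered 150 of 200 genes changed by a log2 fold of 2, with 6 false calls among 9556 genes. The simulation gave all genes the same dispersion and held no outlying library, so its rates need not hold for the real counts. The named genes were the members, the called list genes that reached 50 UMIs in the group where they were higher (at most 4 of a list, by size of the fold change), marker genes of mature bone, and the 3 nearest genes by profile. Alternatives were other cell filters, no doublet removal, other clusterings, cells chosen by markers, thinning to 1500 UMIs, each library left out, other normalizations, no gene filter, DESeq2 1.42.0 and a replicate block. Leaving out hemoglobin, leaving out the dural cluster D3 and treating Gkn3-led clusters alike in both preparations were added after seeing the data. P-values measure the spread between libraries, each of them a pool.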

Additional observations from a re-analysis of the deposited data

Results flagged for a closer look

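In leptomeningeal cells, Alpl in cortical surface replicate 2 (66.4 CPM, 107 UMIs) stood far from the other 3 replicates, the nearest of which was at 6.42 CPM, and H19 in the same replicate (20.5 CPM, 33 UMIs) stood apart from 3 replicates at 0. The same replicate was the one apart for Postn in endothelial-like cells (3.72 CPM, 6 UMIs, others 0) and for Alpl in pericyte-like cells (5.63 CPM, 4 UMIs, others 0). These are 4 of 16 groups of 4 libraries examined, and all 4 lie in the same library. For independent continuous values chance would flag about 1 in 20 groups, a rate that was not tested for counts as low as these. The difference between the preparations was larger in mesenchymal-like than in endothelial-like cells by the interaction term for Alpl (5.88 ± 0.67 on the log2 scale, edgeR adjusted p = 1.46e-06), Mgp (5.26 ± 0.67, 6.23e-06), Smoc2 (5.51 ± 0.78, 2.13e-05) and H19 (7.69 ± 1.53, 0.00167). The endothelial-like class held Gkn3-led cells in the cortical surface libraries only. With these cells left out of both preparations the Mgp term was 1.96 (edgeR adjusted p = 0.047). The Smoc2 term rested on 4 and 12 endothelial UMIs. The H19 term rested on 2 and 3 endothelial UMIs, and its call was lost in 4 of 20 alternatives.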

How the results depend on the processing

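Under 20 alternatives, 7 to 10 members were called between dural and leptomeningeal cells, each of them higher in dural cells. The lowest count came with cells thinned to 1500 UMIs, where 7 members passed the detection filter, and 10 were called without cortical surface replicate 4, where Postn had 1.33. Postn was also called, at 2.00, with cells chosen by markers. DESeq2 gave Alpl a log2 fold change of 4.51 with no adjusted p. Genes called in this contrast numbered 1348, 568 in thinned cells, and 986 to 1327 with a library left out. Over the 19 alternatives other than thinning they numbered 986 to 1917. Replicate numbers are shared by the groups, but the correlations of same-numbered libraries were 0.0511 and 0.133 over 9556 genes and nothing in the labels ties them, so they share only a number; with a replicate block 1320 genes and 9 members were called.

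In endothelial-like cells 1 member was called, 2 with no gene filter, 0 in thinned cells (Alpl -1.12, edgeR adjusted p = 0.0640, and 1 of 2 tested members with an unadjusted p under 0.05) and 0 with the Gkn3-led clusters in both preparations. With these clusters in both, Alpl turned to 0.11 and Mgp to 0.49, and with them left out Mgp was 2.91. At up to 20% mitochondrial UMIs Mgp was 2.95 and Alpl -1.20. In VSMC-like cells 1 member was called, 2 with no gene filter and 0 in thinned cells, where Alpl missed the detection filter and Mgp had an unadjusted p of 0.117. Mgp in VSMC-like cells ran from -0.044 (without cortical surface replicate 1) to 0.99 with a library left out, and was -0.0043 without bone-associated replicate 2. The interaction of Postn ran from -0.91 (without cortical surface replicate 2) to 4.61 with a library left out, and was called, at 3.92, without cortical surface replicate 4. The causes were not tested. With 2 bone-associated libraries, 37 dural cells in 1 of them and 27 or 30 leptomeningeal cells in 2 cortical surface libraries, low levels were not resolved.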

Other observations

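Cells with UMIs of the osteocalcin genes Bglap or Bglap2, chosen after their values were seen, numbered 20 of the 295 dural cells (3 and 17 in the libraries), and 19 of them lay in D1. Their median was 8 of the 10 members, against 6 in the other 275 cells, at median depths of 12841 and 14612 UMIs. Postn, which was lower in D1 than in D2, was found in 60% of these cells and in 23.3% of the others, Alpl in 95% and 58.2%, and Runx2 in 85% and 52%. The other 275 cells included 91 cells of D2 and 13 of D3, so the 2 groups also differ by cluster. Over all 190 cells of D1 the median was 7 members. Postn was found in 18.9% of the D1 cells, Alpl in 81.6% and Runx2 in 68.4%.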
